A study of Schizosaccharomyces pombe with 6 samples.

Results

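Start sites next to transfer RNA (tRNA) genes were examined in the fission yeast *Schizosaccharomyces pombe* by CAGE (cap analysis of gene expression), a method that reads the 5′ ends of capped RNAs. Tag clusters were taken when their summit, the position of most tags, lay within 500 bp of a nuclear tRNA gene on either strand, and clusters within 50 kb of a centromere were left out. This gave 407 of the 108138 clusters, around 114 of the 171 annotated nuclear tRNA genes. The other 57 tRNA genes lie near centromeres. Of the 114, 99 had at least 1 cluster and 15 had none. The wild type was h- ade6-M210 leu1-32 ura4-D18. The double mutant carried the same mating type and auxotrophic markers (its ade6 allele is written ade6M210) together with fft2::kan and fft3::hph, so that 2 paralogous SNF2-family chromatin remodelling ATPases, Fft2 and Fft3, were missing. Each strain had 3 libraries from total RNA of whole cells taken in mid-log phase from YES cultures shaken at 180 rpm at 30 °C. The series speaks of triplicates and the growth protocol of duplicate cultures, so p-values measure the spread between libraries, which may be technical.

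tRNA genes are short and are read by RNA polymerase III, which finds them through promoter elements inside the gene, the A and B boxes, and stops at a run of T on the coding strand. TFIIIC binds these boxes and brings in TFIIIB, which places the polymerase. The tRNA itself carries no cap, so capped tags around a tRNA gene mostly report RNA polymerase II. In fission yeast, tRNA genes are also known as barriers between chromatin domains, and Fft3 is known for its role at such borders.

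The 114 genes were between 71 and 102 bp long, and 25 had 2 exons. The B box, searched as GTTCNANNC on the tRNA strand, was present in 107 genes (93.9%), against 2.40% of all 75-bp genome tiles searched on both strands. On the opposite strand of the genes it was present in 5. A run of TTTT on the tRNA strand lay within 20 bp after 106 genes (93.0%), against 17.3% of 20-bp tiles on 1 strand. The following stretch shows how close a capped start can lie to such a gene. It runs from the first base of SPBTRNAPRO.07 (tRNA-Pro), at II:2939715-2939883 on the plus strand, to the initiating base of a start site that rose in the mutant. Capitals mark the tRNA gene and, at the end, the pyrimidine-purine step at which the capped RNA begins, 96 bases past the gene.
SPBTRNAPRO.07 to the start site downstream of it: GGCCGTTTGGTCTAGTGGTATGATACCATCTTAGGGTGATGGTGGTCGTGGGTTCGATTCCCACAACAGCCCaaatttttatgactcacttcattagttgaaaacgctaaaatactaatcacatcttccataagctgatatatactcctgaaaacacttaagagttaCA
The B box and the T run directly after the gene can both be read in this sequence.

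The start sites that rose most and lie outside protein-coding genes are shown from 45 bases upstream to 5 bases downstream of the initiating base, with the pyrimidine-purine step in capitals. The first pair lie in promoter windows of long non-coding RNAs, and the next 3 lie before the coding genes rec12 and sry1. The last lies inside a tRNA-Val gene on its opposite strand.
SPNCRNA.7124, III:947127-947177, minus strand: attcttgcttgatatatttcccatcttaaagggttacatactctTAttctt
SPNCRNA.4793, II:602361-602411, minus strand: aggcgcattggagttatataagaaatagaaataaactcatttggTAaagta
rec12, I:1772542-1772592, plus strand: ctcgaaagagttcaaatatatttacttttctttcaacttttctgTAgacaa
sry1, nearer the tRNA gene, III:140699-140749, minus strand: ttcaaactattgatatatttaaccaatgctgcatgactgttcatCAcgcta
sry1, farther from the tRNA gene, III:140491-140541, minus strand: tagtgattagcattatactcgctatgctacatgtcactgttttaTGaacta
inside SPATRNAVAL.03, I:2214762-2214812, plus strand: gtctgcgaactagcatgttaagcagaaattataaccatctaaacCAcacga
The usual initiator, a pyrimidine followed by a purine, was present at 51 of the 55 clusters near tRNA genes that were abundant enough to test, against 83.4% of all 11250 tested clusters and 23.2% of genome positions. The class mix differs between these sets. Among coding promoters the step was present at 97.4% near tRNA genes and 97.5% elsewhere. Outside promoter windows and coding genes it was present at 85.7% and 95.4%. Intragenic clusters elsewhere had it at 47.2%. TATAA lay within 60 bases upstream, on the strand of the start, at 11 of the 55 (20%) and at 13.1% of all tested clusters. On either strand it was found at 16 of the 55 (29.1%) and at 19.9% of all tested clusters. No test was made of these shares.

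Libraries held between 12681899 and 23242897 tags, of which between 91.2% and 92.3% lay in clusters. Tags in the coding part of fft2 numbered 272 in wild-type cells and 8 in mutant cells, and those of fft3 142 and 27, as the genotype labels say. Levels are given in TPM, tags scaled to the library total and written so by the authors.

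Capped starts near tRNA genes pointed away from the gene. Of the 407 clusters, 305 started RNAs heading away from the tRNA gene, 86 headed toward it and 16 had their summit inside it. Part of this is geometry, since a coding gene that starts close to a tRNA gene without overlapping it can only read away from it. Among the 267 clusters outside coding promoter windows, 174 headed away, 83 toward and 10 lay inside. In the wild type, starts heading away held 1.38 TPM per kb of strand up to 100 bp from the gene, 7.16 between there and 250 bp, and 36.6 from there to 500 bp. The last value equals the mean of 36.6 TPM per kb of strand over the whole genome, and it is 24.0 without the most abundant cluster, which lies beside SPCTRNAILE.09. Starts heading toward the gene held 0.0192, 0.0419 and 0.138 TPM per kb of strand in the same distance classes. Over all clusters, the level thus fell toward the gene on both courses. Outside coding promoter windows and without the cluster beside SPCTRNAILE.09, starts heading away summed to 22.3, 14.5 and 30.8 TPM in wild-type cells. The classes span 22221, 32585 and 53186 bases of strand, so the level of this set per base was highest within 100 bp. A cluster of 17.8 TPM beside SPBTRNAASP.04 held most of the first sum. In the mutant, over all clusters and with the deposited scaling, the TPM per kb heading away were 1.24, 8.98 and 45.3. The last value was 27.1 without the cluster beside SPCTRNAILE.09. Those heading toward were 0.0416, 0.0454 and 0.148. Around 35 genes of 5S rRNA, which are also read by RNA polymerase III, starts heading toward the gene held 0.213, 0.635 and 0.226 TPM per kb of strand in the same distance classes in wild-type cells, and 0.243, 1.07 and 0.728 in mutant cells. Heading away, the values around 5S rRNA genes were 1.82, 1.14 and 30.0 in wild-type cells and 1.91, 1.19 and 36.5 in mutant cells. The difference between the gene types was not tested in this measure.

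**Figure D1:**
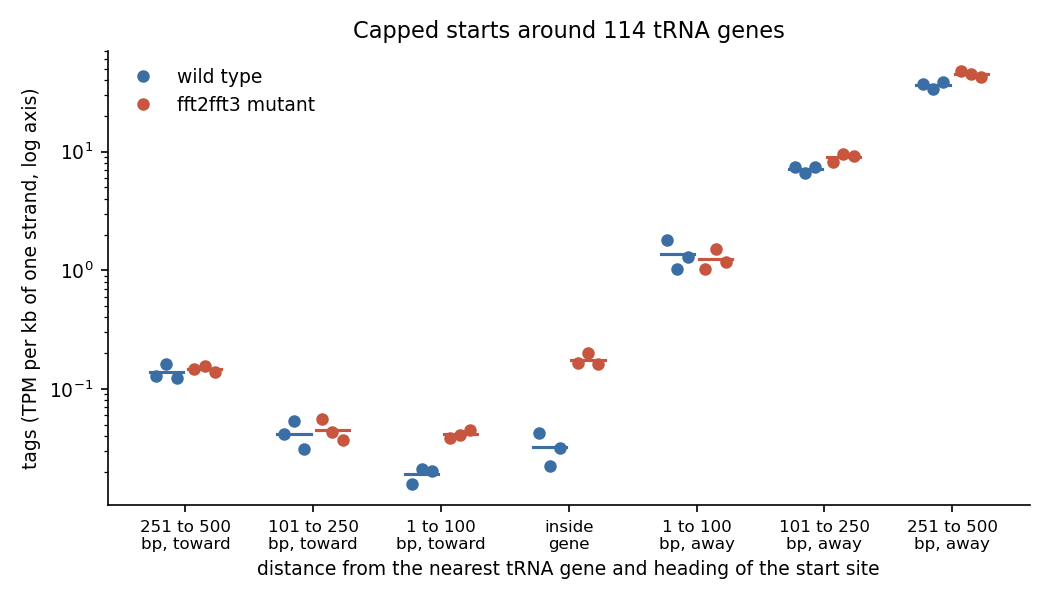
Tags in TPM per kb of one strand, on a log axis, by distance from the nearest tRNA gene and by heading. Points are libraries and lines are means of 3; heading away, both groups fall from the outermost distance class to the innermost, and the groups do not overlap inside the gene, within 100 bp heading toward it, and in both classes beyond 100 bp heading away. In these 4 classes the mutant is higher with the deposited scaling, and in the other 3 the groups overlap. All clusters are included, those of coding promoters too.

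Of the 407 clusters, 55 averaged 1 TPM or more across all 6 libraries and were tested. They lie at 43 tRNA genes, and 38 of them are promoter clusters of 32 protein-coding genes. The promoter window of a coding gene runs from 500 bp upstream to 100 bp downstream of the annotated start, or to the start codon. A filter on the mean keeps a low cluster only if 1 group is high, so these counts describe the abundant clusters and not all members. Of the 55, 15 were higher in the mutant (27.3%) and 3 lower (5.45%), by limma on log2(TPM + 0.5) with Benjamini-Hochberg adjustment over all 11250 tested clusters at 0.05. Over all tested clusters, 36.9% were higher and 9.36% lower. The median log2 fold change was 0.13 near tRNA genes and 0.27 over all tested clusters. The groups did not overlap at 25 of the 55, against 55.2% of all tested clusters. The class mix differs between the sets, since most tested clusters near tRNA genes are coding promoters, and within classes the shares lay closer together, as given below. The differences in shares were not tested. In bulk cultures, fewer cells using a start and fewer RNAs per cell cannot be told apart.

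The split between higher and lower depends on the scaling. Median-of-ratios scaling moved the median of all clusters from 0.27 to -0.02, and TMM scaling gave -0.02 as well. Under both, 9 clusters near tRNA genes were higher and 11 lower. The background was then 27.3% higher and 19.8% lower with median-of-ratios scaling, and 27.3% and 19.9% with TMM scaling. The same 9 clusters were higher under all 3 scalings, and the same 3 were lower. The 9 are those with a log2 fold change above 1.

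**Figure D2:**
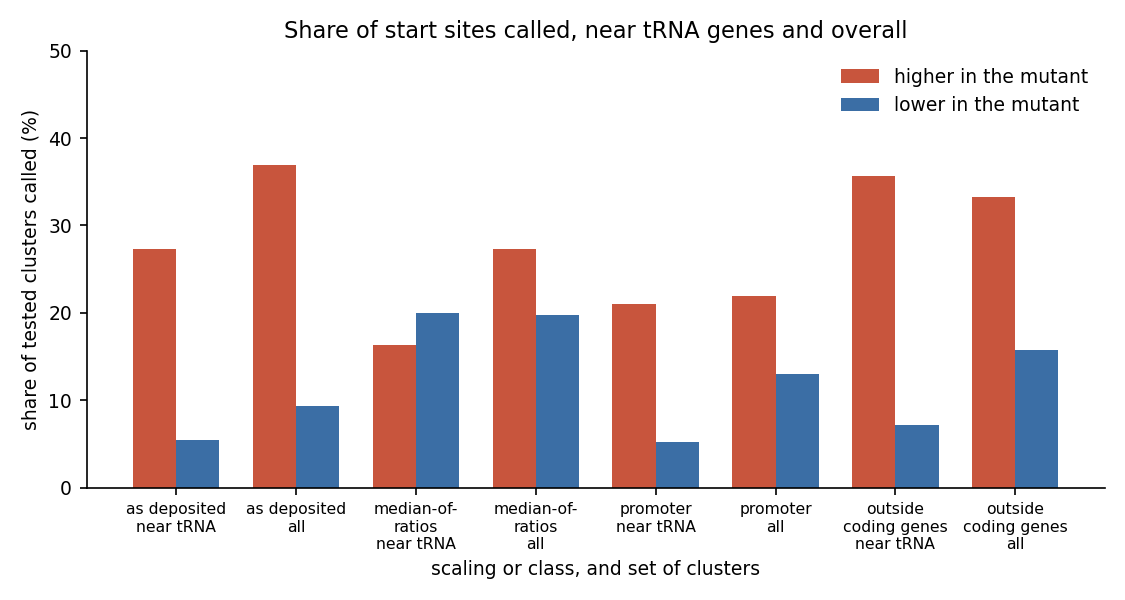
Share of tested clusters called higher or lower in the mutant (%), near tRNA genes and over all clusters, with the deposited and the median-of-ratios scaling, and, with the deposited scaling, for promoter clusters and for clusters outside promoter windows and coding genes. The share called higher near tRNA genes is 27.3% against 36.9% over all classes, 21.1% against 21.9% for promoters and 35.7% against 33.3% outside coding genes.

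Promoter clusters rose at 8 of 38 tested members (21.1%) and fell at 2 (5.26%), against 21.9% and 13% of all tested promoter clusters. Clusters outside both promoter windows and coding genes rose at 5 of 14 (35.7%) and fell at 1 (7.14%), against 33.3% and 15.8% of all such clusters. The shares of higher clusters were thus near the background in both classes. Both tested antisense clusters were higher, as were 75.3% of all tested antisense clusters, of which 3.55% were lower. The only intragenic cluster tested did not pass, against 48.4% higher and 3.08% lower overall. Taken as 1 set, the clusters outside promoter windows rose at 7 of 17 and fell at 1, against 53.5% and 5.34%, a background made mostly of intragenic and antisense clusters. By chromosome, 3 of 24 tested clusters were higher and 3 lower on chromosome I, 5 of 16 were higher on chromosome II and 7 of 15 on chromosome III, with none lower on the last 2. By distance, 1 of 3 tested clusters up to 100 bp outside the gene was higher, as were 5 of 15 from there to 250 bp and 8 of 36 from there to 500 bp. By side, 4 of 14 tested clusters upstream of the tRNA gene were higher and 1 lower, and 10 of 40 downstream were higher and 2 lower. Both of the sides thus held clusters of either direction. Over all tested clusters, 36.9% were higher and 9.36% lower. Shares over all clusters of each chromosome were not taken, and differences between these chromosomes, distances and sides were not tested.

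**Figure D3:**
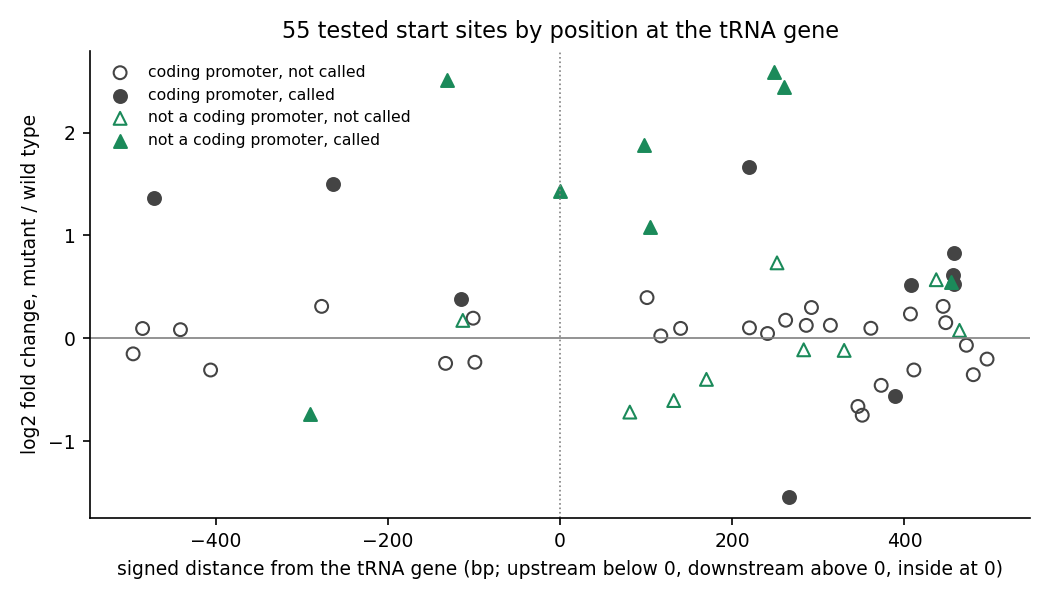
Log2 fold change (mutant over wild type) of the 55 tested clusters against the signed distance from the tRNA gene in bp. Circles are clusters of coding promoters, triangles the others, and filled symbols passed the test; rises above 1 on the log2 scale lie on both sides and inside the gene, and the gap on either side of 0 shows that no tested cluster outside a tRNA gene lies nearer than 81 bp.

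Tags inside tRNA genes were few, and their sum was higher in every mutant library. The 16 clusters there summed to 0.747, 0.394 and 0.557 TPM in wild-type libraries 1 to 3 and to 2.88, 3.53 and 2.87 TPM in mutant libraries 1 to 3. The groups did not overlap, and the ratio of means was 5.47 (31 tags against 206; exact two-sided permutation test over libraries, p = 0.1, the smallest that 3 against 3 allow, adjusted p = 0.133 over 12 sums). A single cluster made up most of it. This cluster, at I:2214803-2214825 inside SPATRNAVAL.03, starts on the opposite strand of the tRNA-Val gene, across from position 8 of the gene. It held 0.598, 0.158 and 0.557 TPM in wild-type cells and 1.98, 2.33 and 1.66 TPM in the mutant, and rose by 1.44 ± 0.23 on the log2 scale (SE; limma adjusted p = 0.000936). Its wild-type mean was 0.437 TPM, so the filter on the mean admitted it only because the mutant was high. The lncRNA SPNCRNA.2990 is annotated over this gene on the same strand as the start. Of the other 15 clusters, 13 lie on the strand of the tRNA gene, and that strand held 0.0128 TPM per kb in wild-type cells and 0.113 in mutant cells. Of 20 tRNA genes that another gene overlaps, 19 are overlapped by an lncRNA and 1 by a coding gene, and all of these genes lie on the opposite strand.

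The 4 largest rises were at starts below 0.4 TPM in every wild-type library. A start that low reaches the mean of 1 TPM only where the mutant is high, so the filter sets that such starts appear here as large rises. A pair of them lie downstream of SPBTRNAPRO.07 and read on the strand of that gene, away from it. The farther of the pair, at II:2940018-2940091 and 248 bp past the gene, runs antisense into SPBC1703.13C, annotated as an inorganic phosphate transporter. It held 0.0498, 0.0789 and 0.0506 TPM in wild-type cells and 2.45, 2.89 and 3.32 TPM in the mutant, a log2 fold change of 2.59 ± 0.16 (SE; limma adjusted p = 3.45e-06). Each wild-type library held 1 tag, so the ratio of depth-scaled tags, 50.2 (190 tags against 3), has a 95% exact interval from 16.9 to 245.4 for counting error alone. The nearer of the pair, at II:2939808-2939886 and 98 bp past the gene, is the start printed above. The annotated edge of SPBC1703.13C lies within 5 bases past its initiating base. It was classed outside coding genes by its summit, but it too reads antisense into SPBC1703.13C. This nearer start held 0.249, 0.158 and 0.101 TPM in wild-type cells and 2.02, 1.77 and 2.06 TPM in the mutant, a log2 fold change of 1.88 ± 0.16 (SE; limma adjusted p = 1.72e-05).

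A further pair lie in promoter windows of annotated long non-coding RNAs, from 500 bp upstream to 100 bp downstream of the annotated start. They are named as starts of these RNAs by that position alone. The start of SPNCRNA.7124, at III:947106-947170 and 131 bp upstream of SPCTRNAASN.05 (tRNA-Asn), held 0.249, 0.394 and 0.202 TPM in wild-type cells and 2.41, 5.39 and 4.63 TPM in the mutant. It rose by 2.52 ± 0.27 on the log2 scale (SE; limma adjusted p = 7.36e-05). The start of SPNCRNA.4793, at II:602360-602366 and 260 bp downstream of SPBTRNALYS.06 (tRNA-Lys), held 0.0996, 0.0789 and 0.0506 TPM in wild-type cells and 1.94, 3.10 and 3.02 TPM in the mutant. It rose by 2.45 ± 0.19 (SE; limma adjusted p = 1.09e-05). In both, the lowest mutant library was several times the highest wild-type library. A weaker antisense start, at III:1206639-1206650 and 104 bp downstream of SPCTRNAVAL.11 (tRNA-Val), lies in the aldehyde dehydrogenase gene atd3 and in the promoter window of the lncRNA SPNCRNA.1179. It held 0.598, 0.315 and 0.607 TPM in wild-type cells and 1.72, 1.34 and 1.81 TPM in the mutant, and rose by 1.08 ± 0.19 (SE; limma adjusted p = 0.00147). With a wild-type mean of 0.507 TPM, it too met the filter only because the mutant was high.

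Coding promoters rose at sry1 and rec12. The gene sry1 encodes serine racemase, and both of its tested clusters read away from the 5′ side of SPCTRNAGLU.09 (tRNA-Glu). The cluster at III:140466-140532, 472 bp from the tRNA gene, held 10.8, 9.46 and 9.92 TPM in wild-type cells and 21.6, 30.9 and 28.4 TPM in the mutant (log2 1.37 ± 0.17 SE, limma adjusted p = 0.000164). The cluster at III:140658-140724, 264 bp from the tRNA gene, held 3.34, 2.29 and 2.99 TPM and then 8.17, 8.66 and 10.2 TPM (log2 1.503 ± 0.18 SE, limma adjusted p = 0.000144). The groups did not overlap at either cluster. The gene rec12 encodes the Spo11-type protein that makes meiotic DNA breaks, and its 2 tested clusters lie downstream of SPATRNAILE.01 (tRNA-Ile). The nearer, at I:1772586-1772592 and 219 bp from the tRNA gene, held 5.28, 2.60 and 3.54 TPM in wild-type cells and 10.9, 13.2 and 14.2 TPM in the mutant (log2 1.66 ± 0.24 SE, limma adjusted p = 0.000454). The farther, at 361 bp, held 1.25, 1.498 and 0.607 TPM and then 1.08, 1.21 and 1.26 TPM, and did not pass the test (limma adjusted p = 0.762). The difference between the 2 clusters of rec12 was not tested.

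The other 6 rises were below 1 on the log2 scale and were lost with both other scalings. They are the promoters of rmr1 (0.83), gid7 (0.62), par1 (0.53), zas1 (0.52) and SPBC2G5.01 (0.38), with limma adjusted p between 0.00443 and 0.037, and 1 cluster with no coding gene. The gene rmr1 is annotated as encoding a meiotic recombination protein, and gid7 a WD-repeat protein. The gene par1 encodes a regulatory subunit of protein phosphatase PP2A, zas1 a transcription regulator and SPBC2G5.01 a calcium-binding protein. At rmr1 the wild type held 12.7 ± 2.06 TPM and the mutant 23.0 ± 3.66 TPM (SD, n = 3). The cluster with no coding gene, at III:817951-817953 and 454 bp downstream of SPCTRNAILE.09 (tRNA-Ile), was the most abundant of all members. It held 690, 535 and 780 TPM in wild-type cells and 983, 1031 and 884 TPM in the mutant (log2 0.55 ± 0.16 SE, limma adjusted p = 0.020). It had no pyrimidine-purine step and lay 507 bp upstream of the annotated start of ctr4, a copper transporter gene, on its strand, just outside the promoter window. The clusters in that window summed to 3.29 TPM in wild-type cells and 5.04 TPM in the mutant. On that sum, which leaves this cluster out, ctr4 did not pass the test (limma adjusted p = 0.245).

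Clusters fell at ter1, chp1 and SPAC1805.16C. The gene ter1 encodes the RNA of telomerase, and its cluster at I:3086020-3086027, 290 bp upstream of SPATRNALYS.05 (tRNA-Lys), held 12.4, 15.4 and 14.98 TPM in wild-type cells and 9.94, 7.28 and 7.85 TPM in the mutant. It fell by 0.74 on the log2 scale (SE 0.17, limma adjusted p = 0.00678), and the call was kept under every alternative tried. The gene chp1 encodes a chromodomain protein that acts in centromeric heterochromatin in fission yeast. Its promoter, 389 bp downstream of SPATRNAVAL.03, held 5.28, 3.39 and 4.503 TPM and then 2.58, 2.54 and 3.22 TPM (log2 -0.56 ± 0.19 SE, limma adjusted p = 0.043). That call was lost in 7 of 14 alternatives, with an adjusted p of up to 0.134. SPAC1805.16C encodes a purine nucleoside phosphorylase and has 3 tested clusters downstream of SPATRNALEU.02 (tRNA-Leu). The nearest, at 266 bp, held 1.10, 4.42 and 0.759 TPM in wild-type cells and 0.215, 0.302 and 0.201 TPM in the mutant (log2 -1.54 ± 0.44 SE, limma adjusted p = 0.020). Wild-type library 2 stood above the other 2, and without it the log2 fold change was -0.94 and still passed. The filter on the mean was still taken over all 6 libraries in that fit. Library 2 thus helped admit the cluster there, so that fit cannot show a fall independent of it. Without mutant replicate 1 or 3 the log2 fold change was -1.52 or -1.503 and the call was lost, with an adjusted p of up to 0.0604. The other 2 clusters of the gene, with log2 fold changes of -0.75 and -0.46, did not pass (limma adjusted p = 0.133 and 0.241).

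**Figure D4:**
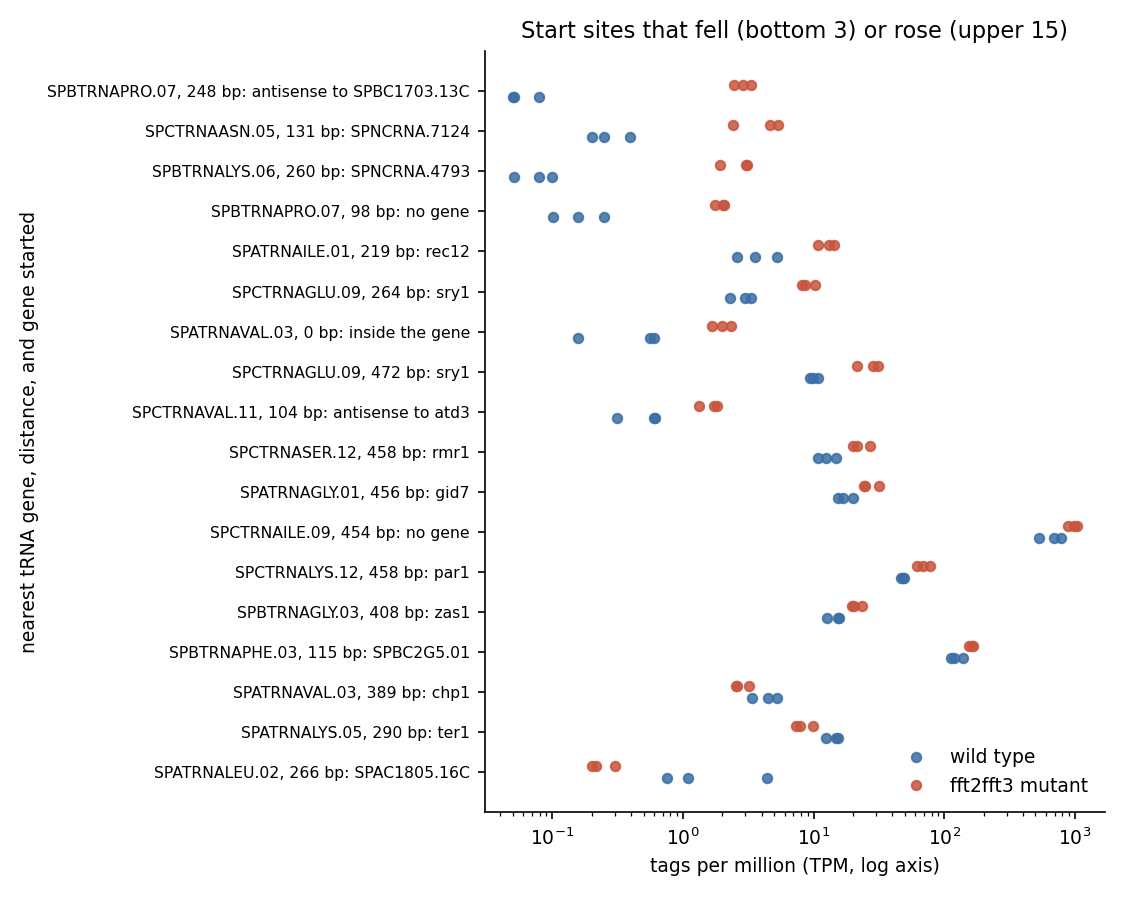
TPM per library, on a log axis, of the 18 clusters that passed the test, ordered by log2 fold change. Labels give the nearest tRNA gene, the distance and the gene assigned by position. Each point is 1 library; in all 18 the 3 mutant libraries lie on 1 side of the 3 wild-type libraries. The filter on the mean admits a start far below 1 TPM in the wild type only where the mutant is high.

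Several abundant promoters beside tRNA genes did not pass the test. The promoter of tom70, a mitochondrial import receptor gene, held 451, 420 and 449 TPM in wild-type cells and 626, 443 and 442 TPM in the mutant (log2 0.18, limma adjusted p = 0.391), so only mutant library 1 stood above. That of swi6, the gene of the fission yeast HP1 protein, held 109, 87.4 and 101.2 TPM and then 115, 103 and 98.9 TPM (log2 0.10, limma adjusted p = 0.592). The promoter of SPBC3H7.04, a mitochondrial ribosomal protein gene, held 103, 88.4 and 92.3 TPM and then 96.8, 103 and 100.5 TPM. That of rlp24, a ribosome biogenesis gene, held 115, 136 and 149 TPM and then 109, 103 and 110 TPM (log2 -0.31, limma adjusted p = 0.088), and was lower with either other scaling.

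At 10 tRNA genes more than 1 cluster was tested, 3 clusters at 2 of them and 2 clusters at 8. The 3 at SPCTRNAHIS.03 summed with their untested neighbours to between 12.3 and 14.4 TPM in wild-type cells and between 11.4 and 14.9 TPM in the mutant. Those at SPATRNALEU.02 summed to between 4.45 and 14.0 TPM and between 2.88 and 4.63 TPM. The groups did not overlap at 3 of the 10. These were SPCTRNAGLU.09, where sry1 starts, with 12.6 to 15.05 TPM and 30.8 to 40.9 TPM, SPATRNAILE.01, where rec12 starts, with 4.57 to 7.07 TPM and 12.6 to 16.2 TPM, and SPBTRNAPRO.07 with 0.202 to 0.552 TPM and 5.29 to 6.49 TPM. All 3 were higher in the mutant, but SPBTRNAPRO.07 entered the 10 only because its 2 tested clusters are high in the mutant. Over all tested clusters the groups did not overlap at 55.2%. The share for sums at other loci was not taken. The groups overlapped at the other 7, among them SPBTRNALEU.09, where kgd2 starts, with 101.2 to 112 TPM and 111 to 140 TPM, and SPATRNASER.02, where mug70 starts, with 51.1 to 63.0 TPM and 52.7 to 78.6 TPM. At SPBTRNAASP.04 the sums were 13.6 to 29.6 TPM and 10.7 to 22.3 TPM, at SPATRNALYS.04 6.02 to 9.22 TPM and 4.43 to 8.32 TPM, and at SPATRNAVAL.03 4.42 to 6.58 TPM and 5.29 to 6.16 TPM.

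Summed over all 407 clusters, the wild type held 2280, 2032 and 2347 TPM and the mutant 2832, 2780 and 2612 TPM. The ratio of means was 1.24 and the groups did not overlap (exact two-sided permutation test, p = 0.1, the smallest possible). This sum and those below use the deposited scaling only. Median-of-ratios scaling moved the median of all tested clusters from 0.27 to -0.02 on the log2 scale. It moved the cluster beside SPCTRNAILE.09 from 0.55 to 0.22. Whether the sums are higher in the mutant with that scaling was not tested. Promoter clusters summed to 1474 ± 40.8 and 1681 ± 74.4 TPM (SD, n = 3), and the others to 745 ± 128 and 1061 ± 82.9 TPM. Without the cluster beside SPCTRNAILE.09 the others summed to 77.1 ± 9.18 and 94.8 ± 13.8 TPM, and the groups overlapped (exact p = 0.2). Antisense clusters summed to 1.95 ± 0.0794 and 13.1 ± 0.891 TPM, a ratio of 6.70 (exact p = 0.1). All 28728 antisense clusters of the series summed to 4012 ± 95.9 and 12670.2 ± 603 TPM, a ratio of 3.16, and the difference between the ratios was not tested. Clusters heading toward a tRNA gene summed to 9.15 ± 1.51 and 10.3 ± 0.581 TPM, and the groups overlapped (exact p = 0.4). Within these, those upstream of the gene on its own strand and outside coding promoter windows held 0.741 ± 0.136 and 1.84 ± 0.257 TPM, with no overlap (exact p = 0.1, adjusted p = 0.325 over 13 sums). Those downstream on the opposite strand, which hold most of these tags, summed to 8.26 ± 1.33 and 7.97 ± 0.645 TPM, with overlap (exact p = 0.8, adjusted p = 0.867).

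The 352 members below 1 TPM were not tested one by one. They summed to 33.2 ± 2.78 TPM in wild-type cells and 52.4 ± 5.20 TPM in the mutant, a ratio of 1.58. Over all clusters below 1 TPM the ratio was 2.05. Tags were seen in the mutant alone at 122 of the 352 (34.7%), against 37.1% of all such clusters, and in all 3 mutant libraries but no wild-type library at 14 (3.98%), against 8.47%. The mutant group held 66307400 tags and the wild-type group 52519905, which moves such counts toward the mutant.

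Set against starts within 500 bp of 5S rRNA genes, outside coding promoter windows, the summed level near tRNA genes changed by -0.26 on the log2 scale (exact two-sided permutation test, p = 0.4). Without the cluster beside SPCTRNAILE.09 it changed by -0.47 (exact p = 0.1). The mutant-to-wild-type ratio of the starts near 5S rRNA genes was 1.71. Against starts near snoRNA and snRNA genes the change was 0.46 (exact p = 0.3), and without that cluster 0.23 (exact p = 0.6). With 3 libraries against 3 no p below 0.1 can be reached, so these differences could not pass a threshold of 0.05.

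The genes of the machinery that reads tRNA genes and processes the transcripts were taken as a list of 35, of which 34 were tested. Of these, 3 were higher and 5 lower, against 24.3% and 9.11% of 5610 genes, and the median log2 fold change was -0.15 against 0.13 over all genes. Among the initiation factors, tbp1, the TATA-binding protein gene, held 185 ± 0.947 and 264 ± 30.8 TPM (log2 0.51, limma adjusted p = 0.0122). The TFIIIC subunit genes sfc9 and sfc7 rose by 0.78 and 1.23 on the log2 scale (limma adjusted p = 0.00988 and 0.00484), and the other 4 TFIIIC genes did not pass. The gene sfc7 held 0.656 ± 0.268 TPM in wild-type cells and 2.17 ± 0.434 TPM in the mutant. The filter on a mean of 1 TPM thus admitted sfc7 only because the mutant was high. Of 12 genes of RNA polymerase III subunits, rpc11 alone passed, with 41.9 ± 7.25 and 26.5 ± 2.47 TPM (log2 -0.64, limma adjusted p = 0.0196). Both genes of the enzymes that add CCA to tRNA ends were lower, cca2 with 97.0 ± 9.38 and 42.3 ± 9.95 TPM (log2 -1.21, limma adjusted p = 0.00142) and cca1 with a log2 fold change of -0.47 (limma adjusted p = 0.0439). Also lower were trz2, the gene of a tRNA 3′ end nuclease, with -0.57, and sla1, the gene of the La protein that binds new polymerase III transcripts, with -0.41 (limma adjusted p = 0.011 and 0.028). The count of lower genes was between 2 and 3 when any 1 library was left out. In those 6 fits cca2, trz2, tbp1, sfc9 and sfc7 passed each time, rpc11 passed 2 times, sla1 passed 1 time and cca1 never. With either other scaling 2 list genes were higher and 7 lower, against 18.6% and 14.8% of all genes with median-of-ratios scaling and 18.5% and 15.3% with TMM scaling, and tbp1 no longer passed (limma adjusted p = 0.0821 and 0.0777).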

How the data were processed

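The authors deposited RPM values, written as TPM, where T stands for tags, for the same clusters in every library, and a pooled score, a coverage signal the authors took over all libraries, which was not used. CASAVA 1.6, Bowtie 0.12.7 and bedtools 2.15.0 are named with build ASM294v2, with no roles, per the submitters' processing notes. Between 99.7% and 99.8% of values were whole multiples of 1 tag (tolerance 0.02). Genes and sequences come from RefSeq's ASM294v3. The builds were matched by the initiator: a pyrimidine-purine step lay 1 bp upstream of the summit in 98.3% of 4348 promoter clusters that reached 5 TPM. Coordinates count from 1.

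Clusters averaging 1 TPM or more were tested with limma 3.58.1 with trend on log2(TPM + 0.5), two-sided. This scale understates the change of low clusters. Sums were compared with exact permutation tests. edgeR 4.0.16 and DESeq2 1.42.0 on recovered tags, other scalings, filters, pseudocounts, distances and left-out libraries were alternatives. The model was tested on simulated data. Members and lists were chosen with earlier results of these data known. Clusters named are the 15 largest rises and 10 largest falls past the threshold without overlap, the 6 most abundant in the wild type, and tested ones inside tRNA genes. The floor of 3 tags over a group's libraries was 0.0571 TPM for wild-type and 0.0452 TPM for mutant libraries. Molecular identifiers are not given in the sources used here, so floors cover counting error only. Also named are the tRNA genes with the most tested clusters (the rule asked for 6, and all 10 with at least 2 are given because of ties) and the list genes that passed.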

Additional observations from a re-analysis of the deposited data

How the results depend on the processing

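Of the 18 clusters called near tRNA genes, 10 kept their call under every alternative in which they were tested. Another 8 lost it under at least 1, and none changed direction. Called clusters averaging below 5 TPM were not tested with the filter at 5 TPM, and this was not counted as a loss. Counts of higher and lower clusters were 9 and 11 under TMM scaling, and 9 and 11 under median-of-ratios scaling, with 3 lower outside coding promoter windows. edgeR on the recovered tags gave 10 higher and 12 lower, 3 of the lower outside promoter windows, and DESeq2 9 higher and 12 lower, 2 of the lower outside. With no filter, 407 clusters gave 45 higher and 7 lower, 32 and 3 of them outside promoter windows. With a mean of at least 5 TPM, 31 clusters gave 9 higher and 1 lower, with 1 higher outside. Within 250 bp, 7 of 19 tested clusters were higher and 0 lower, with 0 lower outside. Within 1000 bp, 51 and 12 of 175 were, with 25 and 4 outside. Both distances use the main fit, in which 36.9% of all tested clusters were higher and 9.36% lower. A promoter window from 1000 bp left 4 higher outside. It made promoter clusters of the starts at SPNCRNA.7124, inside SPATRNAVAL.03 and beside SPCTRNAILE.09. The summed level outside then had a mutant-to-wild-type ratio of 1.11 (exact permutation test, p = 0.4). Leaving out 1 library gave between 1 and 4 lower, and between 1 and 2 lower outside promoter windows, where wild-type replicate 2 gave the highest. Machinery genes called lower numbered between 2 and 3 without 1 library, against 5 with all. Shares over all clusters or genes were not taken for the edgeR, DESeq2, filter, replicate-block and left-out-library fits. Counts from those fits thus have no background beside them. The cause of these shifts was not tested.

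Same-numbered libraries did not deviate together (r of -0.18, -0.15 and -0.25), so replicate numbers did not mark pairs. Some differently numbered libraries did. Wild-type 1 with mutant 2, wild-type 2 with mutant 3 and wild-type 3 with mutant 1 gave r of 0.35, 0.29 and 0.34. The remaining pairs gave r between -0.15 and -0.11. A block by those other pairs was not fitted, and a shared batch was not tested. With the replicate block, 1 machinery gene was lower in place of 5, and the cluster counts stayed within 1.5 times. Depth limits what the starts below 1 TPM can show, since they rest on a few tags per library.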
